A study of Mus musculus with 22 samples.

Results

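The genes described here are 43 lysosomal hydrolases, membrane proteins and sorting receptors, chosen by name from the known makeup of the lysosome, with earlier results of these arrays known. Of these, 42 had a probe set that is annotated to a single gene symbol, out of 18194 such genes in the series, and 1, Cd63, was not analysed here. The 42 members measured are 11 glycosidases, 12 enzymes and helper proteins of lipid and sulfate breakdown, 10 membrane proteins, 4 genes of sorting and mannose 6-phosphate tagging, and 5 peptidases, phosphatases and glycosylasparaginase. Each gene is represented by its most variable probe set, judged by interquartile range over the arrays. Of all genes, the 9097 in the upper 50% by that range were tested, and 34 of the 42 members were among them. The other 8 members (Sgsh, Arsa, Asah1, Smpd1, Ctns, Abca2, M6pr and Acp5) varied too little to be tested in this way.

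RNA from homogenized colonic tissue was hybridized to 22 Affymetrix mouse expression arrays. VC+ mice (PPARγ fl/fl; Villin Cre+), in which Cre driven by the Villin promoter deletes the nuclear receptor PPARγ in intestinal epithelial cells, gave 3 arrays without DSS (day 0), 5 at day 2 and 4 at day 7 of 2.5% dextran sodium sulfate (DSS) in the drinking water, an agent that injures the colonic epithelium and causes colitis. VC- mice (PPARγ fl/fl; Villin Cre-), whose epithelium keeps PPARγ, gave 3, 3 and 4 arrays at the same days. Both genotypes carry the floxed alleles. The study used mice of a mixed FVB/C57BL/6 background and others backcrossed to C57BL/6, and which of them gave these arrays is not in the labels. Immune and stromal cells keep PPARγ in both. The values are log2 signals after GC-RMA, a procedure that corrects the background and normalizes the arrays together, and a difference of 1 is a doubling. Whether every array comes from a mouse of its own is not in the labels, and the p-values cover only the spread from array to array.

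The lysosome is the acidic compartment in which cells break down material taken up from outside and worn-out parts of their own. Most of its soluble enzymes are made in the endoplasmic reticulum, tagged with mannose 6-phosphate in the Golgi and carried to the lysosome by mannose 6-phosphate receptors, while the limiting membrane is built of heavily glycosylated proteins such as LAMP1 and LAMP2. Macrophages, which clear dead cells and bacteria in the inflamed colon, and absorptive epithelial cells are both rich in lysosomes. In a homogenate the share of each cell type and the RNA per cell cannot be told apart.

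Several properties of the arrays bear on all values below. Prss2, a pancreatic trypsinogen, was at 11.2 or more on 3 arrays (VC+ day 7 replicate 4, VC- day 7 replicate 2 and VC- day 0 replicate 3) and at 4.20 or less on the other 19. The female-specific transcript Xist was above 8 on 6 arrays, none of them at day 7. Hoxb13, a homeobox gene of the distal colon, ranged from 2.88 to 12.42 at day 0 in VC+ mice and from 7.29 to 9.67 in VC- mice. In VC+ mice it was 3.07 to 12.42 at day 2 and 3.07 to 6.88 at day 7. In VC- mice it was 2.88 to 3.08 at day 2 and 3.81, 2.86, 3.03 and 9.62 on day 7 replicates 1 to 4. All of these VC- arrays but day 7 replicate 4 lay below every VC- day 0 array. The part of the colon region in the VC- changes was not tested beyond a fit with Hoxb13 as a term. Pparg lay between 8.50 and 8.83 at day 0 in VC+ mice and between 9.58 and 9.63 in VC- mice, a difference that did not pass the test (-0.96 ± 0.85 SE, adjusted p = 0.934), and where its probe set lies relative to the deleted exons was not analysed here. At day 2 Pparg was 6.87 to 9.54 in VC+ mice and 9.87 to 10.96 in VC- mice. At day 7 it was 10.35, 10.08, 8.54 and 6.26 in VC+ mice and 9.82, 7.39, 8.38 and 8.57 in VC- mice. The day 7 groups overlapped, with means of 8.81 in VC+ mice and 8.54 in VC- mice. The mean of 12 colonocyte markers was 11.72 to 12.96 in VC+ mice and 9.58 to 12.99 in VC- mice, so the epithelium of the labelled tissue was detected on every array. The mean of 18 macrophage and monocyte markers was 7.63 to 7.91 at day 0, 7.97 to 8.65 at day 2 and 9.04 to 10.59 at day 7 in VC+ mice, and 7.75 to 7.91, 8.18 to 8.54 and 8.48 to 10.93 at the same days in VC- mice.

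The promoters of the members, which their choice did not use, were searched for short motifs. TFEB, a transcription factor known mainly from human cells as an activator of lysosomal genes, binds an element around the E-box CACGTG. The RefSeq promoter table (build GRCm38.p6, 250 bases before to 50 bases after each annotated start) matched 36 of the 42 members. CACGTG, which reads the same on both strands, stood in the promoter of 11 of these 36 (30.6%) and of 8.09% of all 27025 genes in the table. The palindrome TCACGTGA, which contains CACGTG, stood in 4 of 36 (11.1%) and in 1.12% of all genes. GAGGAAGT, a form of the site of the myeloid factor PU.1, searched on both strands, stood in 2 of 36 (5.56%), Gusb and Gla, and in 3.69% of all genes. These are matches of letters, not binding sites. The sequences are shown because they place the element beside members described below. The first is 120 bases before the start of Lamp1 (chr8:13159041-13159160, plus strand), which holds 4 matches, and the others are windows of 30 bases around a match, all 5′ to 3′ on the gene's strand with the E-box in capitals.
Lamp1: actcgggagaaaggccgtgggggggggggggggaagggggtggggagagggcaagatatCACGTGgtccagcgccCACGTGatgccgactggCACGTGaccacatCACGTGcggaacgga
Lgmn (chr12:102439124-102439153, minus strand): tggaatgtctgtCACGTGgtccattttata
Glb1 (chr9:114401018-114401047, plus strand): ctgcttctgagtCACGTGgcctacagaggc
Naglu (chr11:101070009-101070038, plus strand): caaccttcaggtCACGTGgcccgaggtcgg
Gla (chrX:134601215-134601244, minus strand): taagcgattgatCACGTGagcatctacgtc
Cln3 (chr7:126583340-126583369, minus strand): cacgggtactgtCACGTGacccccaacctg
Mcoln1 (chr8:3500462-3500491, plus strand): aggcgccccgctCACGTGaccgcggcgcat
Igf2r (chr17:12769737-12769766, minus strand): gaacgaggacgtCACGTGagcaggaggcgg

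Arsa, Gaa and Sgsh were the other members with a match. In all, the 11 members held 18 matches, of which 13 lay within 75 bases before the start, in 8 members. In 2 members, Lgmn and Cln3, the matches lay before a second annotated start inside the gene (636 bases inside for Lgmn and 2581 for Cln3), not before the outermost one. At day 7 in VC- mice the median log2 change was 0.56 in the 9 tested members with a match, of which 2 rose (Lgmn and Lamp1), and 0.56 in the 21 without, of which 6 rose. Of all genes tested, 5.53% rose in this comparison.

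**Figure D1:**
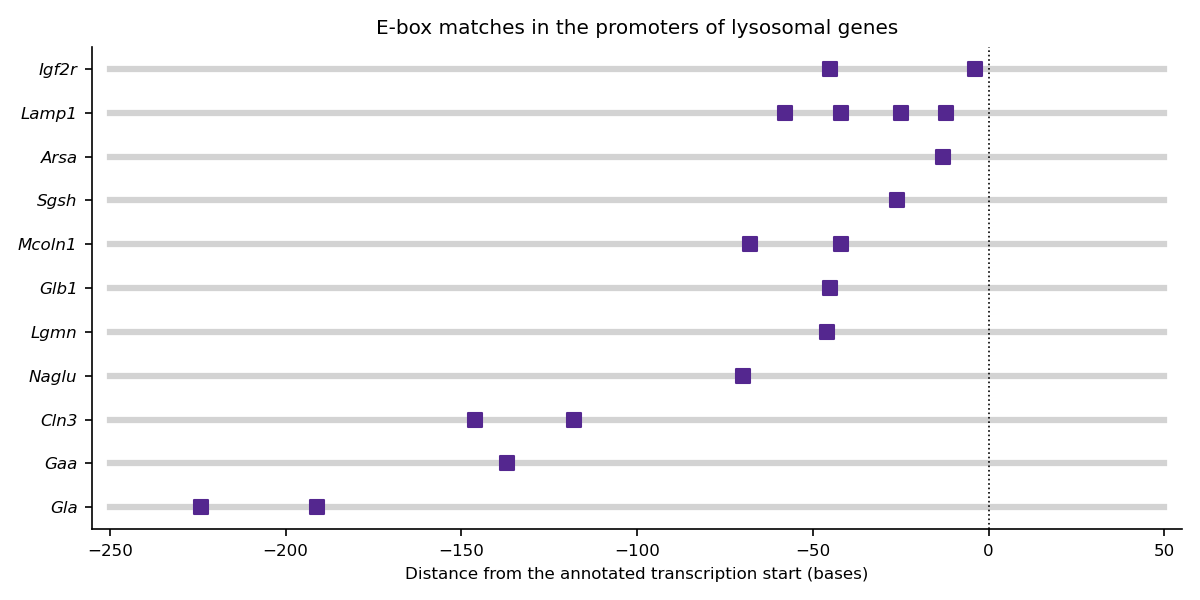
Position of each CACGTG match (squares) in the promoters of the 11 members that hold one, in bases from the annotated transcription start (dotted line), with grey bars for the 300 bases searched. Lamp1 holds 4 matches, and 8 of the 11 genes have a match within 75 bases before the start.

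After 7 days of DSS, 1 of the 34 tested members (Gusb) rose in VC+ mice, compared with 8 in VC- mice, and none fell in either genotype (limma, adjusted p under 0.05 over all genes tested). Over all 9097 genes, 1.75% passed the test in VC+ mice and 10.6% in VC- mice, 5.53% as a rise. The 8 that rose in VC- mice were the peptidase Lgmn, the membrane proteins Laptm5 and Lamp1, the saposin precursor Psap and the glycosidases Gusb, Man2b1, Manba and Hexa. The median log2 change of the 34 members was -0.09 in VC+ mice, with 12 above 0, and 0.52 in VC- mice, with 26 above 0. The medians of all genes tested were -0.02 in VC+ mice and -0.09 in VC- mice. In VC+ mice 3 members, Gusb, Lgmn and Acp2, had every day 7 array above every day 0 array (9.61% of all genes did), and in VC- mice 10 members did (8.62% of all genes). These counts hold for the probe sets used. On other probe sets Psap, Laptm5 and Lipa were also apart in VC+ mice, while another Acp2 probe set overlapped. In VC- mice Lamp2 and Acp2 were apart on others, while Gusb, Man2b1, Lipa and Npc2 overlapped on others. Of the 8 risers, 7 (all but Gusb) are among the lysosome genes that the study lists because they changed in these VC- mice, so their count in VC- mice is not independent evidence of direction.

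**Figure D2:**
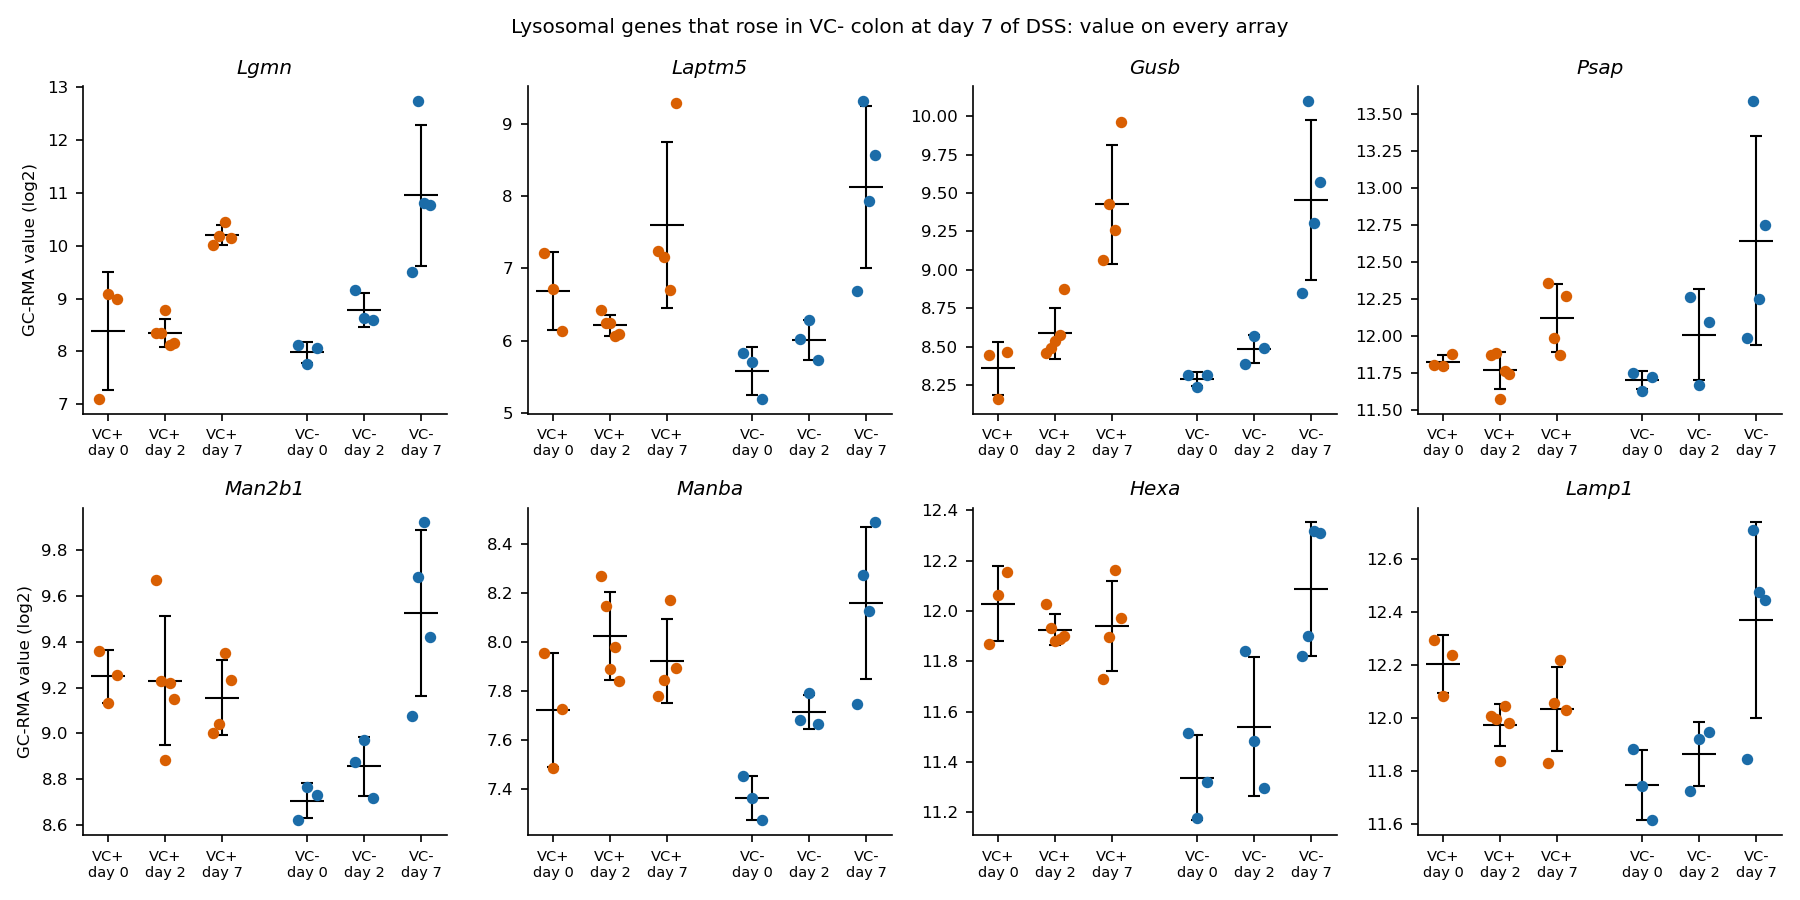
GC-RMA log2 value on each array (points) of the 8 members that rose in VC- mice at day 7, with the group mean (dash) and SD (bars), for VC+ mice (orange) and VC- mice (blue) at days 0, 2 and 7. Gusb rose in both genotypes, whereas Hexa, Man2b1 and Lamp1 lay higher at day 0 in VC+ than in VC- mice and showed no such step in VC+ mice.

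Lgmn encodes legumain, the asparaginyl endopeptidase that trims cathepsins and cleaves antigens in lysosomes. Its log2 values were 10.01, 10.19, 10.46 and 10.15 at day 7 against 7.11, 9.08 and 8.99 at day 0 in VC+ mice. They were 9.50, 12.75, 10.81 and 10.77 at day 7 against 8.13, 7.76 and 8.07 at day 0 in VC- mice. All day 7 arrays were above all day 0 arrays in both genotypes, and the VC- array at 12.75 is replicate 2, which carries the pancreatic signal. The change was 1.81 ± 0.53 (SE) in VC+ mice, a 3.50-fold difference that missed the threshold (adjusted p = 0.105). In VC- mice Lgmn rose by 2.97 ± 0.53, or 7.84-fold (adjusted p = 0.00359), and it passed the test whichever single array was left out. Without the 3 arrays with Prss2 signal the VC+ change also passed (1.83, adjusted p = 0.0405), and the VC- change was 2.42 (adjusted p = 0.0166).

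Laptm5 encodes a lysosomal transmembrane protein of blood cells that was found to limit antigen receptor levels in lymphocytes. Its values were 7.25, 7.16, 6.70 and 9.30 at day 7 against 7.21, 6.71 and 6.14 at day 0 in VC+ mice, where the groups overlapped. In VC- mice they were 6.68, 9.32, 7.94 and 8.57 at day 7 against 5.82, 5.71 and 5.20 at day 0, with no overlap. The highest day 7 array of each genotype (VC+ replicate 4 and VC- replicate 2) is also the one with the highest macrophage marker mean. Laptm5 rose 5.87-fold in VC- mice (log2 2.55 ± 0.54, adjusted p = 0.0101; 0.0666 without VC- day 0 replicate 3), and the change in VC+ mice was 0.92 ± 0.54 (adjusted p = 0.492). The other probe sets with signal gave 0.80 and 0.97 in VC+ mice and 1.23 and 1.62 in VC- mice, with every day 7 array above day 0 in both genotypes.

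Among the glycosidases, which take sugars off glycoproteins, glycolipids and glycosaminoglycans, 1 of 11 rose in VC+ mice (median log2 change -0.09, 2 above 0) and 4 of 11 rose in VC- mice (median 0.61, 10 above 0). The share of all genes that passed was 1.75% in VC+ mice and 10.6% in VC- mice, 5.53% as a rise. Gusb, β-glucuronidase, had 9.06, 9.43, 9.26 and 9.97 at day 7 against 8.45, 8.16 and 8.46 at day 0 in VC+ mice. It had 8.85, 10.10, 9.31 and 9.57 at day 7 against 8.31, 8.23 and 8.31 at day 0 in VC- mice. The groups were apart in both genotypes, with a rise of 1.07 ± 0.24 in VC+ mice (adjusted p = 0.0280) and of 1.17 ± 0.24 in VC- mice (adjusted p = 0.00988). A second, dimmer Gusb probe set gave 1.00 in VC+ mice, with the groups apart, and 0.45 in VC- mice, with overlap. With the mean of both probe sets neither rise passed (1.03, adjusted p = 0.0602, in VC+ mice and 0.81, adjusted p = 0.0590, in VC- mice). The VC- rise passed whichever single array was left out. The VC+ rise did not pass without VC+ day 0 replicate 1, 2 or 3 or VC+ day 7 replicate 2 or 4 (adjusted p = 0.0689, 0.148, 0.0906, 0.0576 and 0.117).

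Hexa, the α subunit of β-hexosaminidase that degrades the ganglioside GM2, behaved differently. Its values were 11.73, 11.89, 12.16 and 11.97 at day 7 against 11.87, 12.06 and 12.16 at day 0 in VC+ mice. They were 11.82, 11.90, 12.32 and 12.31 at day 7 against 11.51, 11.18 and 11.32 at day 0 in VC- mice. The VC+ groups overlapped (-0.09 ± 0.18, adjusted p = 0.895), whereas in VC- mice Hexa rose by 0.75 ± 0.18, or 1.68-fold (adjusted p = 0.0185), with no overlap. The VC- call was lost without VC- day 0 replicate 2 or 3 (adjusted p = 0.0802 and 0.0852) and when the 3 Prss2 arrays were removed (0.80, adjusted p = 0.0661).

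Man2b1, lysosomal α-mannosidase, had 8.9998, 9.04, 9.35 and 9.23 at day 7 against 9.36, 9.13 and 9.25 at day 0 in VC+ mice, and 9.08, 9.68, 9.92 and 9.42 at day 7 against 8.62, 8.76 and 8.73 at day 0 in VC- mice. Manba, β-mannosidase, which acts on the next bond of the same N-glycan cores, had 7.78, 7.84, 8.17 and 7.89 at day 7 against 7.95, 7.49 and 7.73 at day 0 in VC+ mice, and 7.75, 8.27, 8.12 and 8.49 at day 7 against 7.45, 7.36 and 7.27 at day 0 in VC- mice. For both genes the VC+ groups overlapped and the VC- groups did not. The changes were -0.09 ± 0.20 for Man2b1 (adjusted p = 0.908) and 0.20 ± 0.18 for Manba (adjusted p = 0.705) in VC+ mice, against rises of 0.82 ± 0.20 (adjusted p = 0.0225) and 0.80 ± 0.18 (adjusted p = 0.0167) in VC- mice. Man2b1 missed the threshold without VC- day 0 replicate 1, 2 or 3 or VC- day 7 replicate 3 (adjusted p = 0.0567, 0.0594, 0.0869 and 0.0553), and Manba without VC- day 0 replicate 2 or 3 (0.0558 and 0.0869). Without the Prss2 arrays neither passed (0.78, adjusted p = 0.122, for Man2b1 and 0.71, adjusted p = 0.119, for Manba), and with the mean of its 2 probe sets Man2b1 changed by 0.49 (adjusted p = 0.0525).

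The other 7 glycosidases did not pass the test in either genotype. Naglu, which removes N-acetylglucosamine from heparan sulfate, changed by -0.20 in VC+ mice and 0.68 in VC- mice, Gla, α-galactosidase, by -0.45 and 0.61 (-0.56 and -0.03 on its brightest probe set), and Gaa, the glycogen-degrading α-glucosidase, by -0.01 and 0.56 in the same order of genotypes. Idua, α-L-iduronidase, changed by -0.13 in VC+ mice, compared with 0.20 in VC- mice, and Fuca1, α-fucosidase, by -0.05 and 0.19. Glb1, β-galactosidase, was lower at day 7 by 0.56 in VC+ mice and 0.22 in VC- mice. Neu1, the lysosomal sialidase, changed by -1.53 ± 0.67 in VC+ mice and 0.56 ± 0.67 in VC- mice (adjusted p = 0.313 and 0.569), and is taken up below with its day 0 values.

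Among the enzymes and helpers of lipid and sulfate breakdown, 0 of 8 tested members rose in VC+ mice (median 0.18) and 1 of 8 rose in VC- mice (median 0.56). With 1.75% of all genes passing in VC+ mice and 10.6% in VC- mice, these counts do not set the class apart. Psap is the precursor of the saposins, which present sphingolipids to their hydrolases. It had 12.36, 11.99, 11.87 and 12.27 at day 7 against 11.81, 11.80 and 11.88 at day 0 in VC+ mice, and 11.99, 13.59, 12.25 and 12.75 at day 7 against 11.75, 11.63 and 11.73 at day 0 in VC- mice. The VC+ groups overlapped by a single array (0.30 ± 0.27, adjusted p = 0.702), and in VC- mice Psap rose by 0.94 ± 0.27, or 1.92-fold (adjusted p = 0.0374), with no overlap. This call missed the threshold when any of 5 arrays was left out (VC- day 0 replicates 1, 2 and 3, adjusted p = 0.0713, 0.107 and 0.122; VC- day 7 replicates 2 and 4, 0.0782 and 0.0670; the change was 0.62 without VC- day 7 replicate 2). It also missed it without the Prss2 arrays (0.64, adjusted p = 0.176) and with Hoxb13 or Xist as a term (0.0676 and 0.0568). A second, brighter Psap probe set (mean 12.58) gave 0.25 in VC+ mice and 1.35 in VC- mice. On it every day 7 array lay above day 0 in both genotypes.

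The cholesterol-handling members did not pass the test in either genotype. Lipa, the acid lipase that frees cholesterol from its esters, changed by 0.61 in VC+ mice, compared with 0.84 in VC- mice, and Npc2, which hands cholesterol to the membrane protein NPC1, by 0.70 and 0.88. Every VC- day 7 array lay above day 0 for Lipa (6.46, 8.05, 7.04 and 7.03 against 6.01, 6.45 and 6.45) and for Npc2 (5.52, 6.30, 5.89 and 5.89 against 5.19, 4.75 and 5.13). A dimmer Lipa probe set (mean 6.12) gave 0.45 in VC+ mice and 1.04 in VC- mice, with the groups apart in both. The brightest Lipa probe set (mean 8.49) gave 0.55 in VC+ mice, with the groups apart, and 0.44 in VC- mice, with overlap. In VC+ mice Npc2 stood at 7.04 on replicate 4 and at 5.51 to 5.60 on the other 3 day 7 arrays. These Npc2 values come from a dim probe set (mean log2 5.55), and the 2 bright ones (means 12.18 and 12.06) gave -0.25 and -0.17 in VC+ mice and 0.40 and 0.37 in VC- mice, with overlap in both genotypes. Of the sulfatases, Galns changed by 0.25 in VC+ mice, compared with 0.48 in VC- mice, Ids by -0.12 and -0.44, and Arsb by -0.26 and -0.38. A brighter Ids probe set gave -0.28 in VC+ mice and 0.23 in VC- mice. Gm2a, the activator protein that works with β-hexosaminidase, changed by 0.10 in VC+ mice, compared with 0.65 in VC- mice, and the thioesterase Ppt1 by -0.16 and -0.15.

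Of the 8 tested membrane proteins, 0 rose in VC+ mice (median -0.13, 3 above 0) and 2 rose in VC- mice (median 0.45, 7 above 0). The share of all genes that passed was 1.75% in VC+ mice and 10.6% in VC- mice, 5.53% as a rise. Lamp1, a main component of the lysosome's limiting membrane, had 11.83, 12.06, 12.22 and 12.03 at day 7 against 12.29, 12.08 and 12.24 at day 0 in VC+ mice, and 11.85, 12.71, 12.48 and 12.45 at day 7 against 11.88, 11.74 and 11.62 at day 0 in VC- mice. VC- day 7 replicate 1 lay inside the day 0 range and the other 3 lay above it. The change was -0.17 ± 0.18 in VC+ mice (adjusted p = 0.749), and in VC- mice Lamp1 rose by 0.62 ± 0.18, or 1.54-fold (adjusted p = 0.0380). Of the 8 calls it is the one lost with the most single arrays left out, namely without any of VC- day 0 replicates 1, 2 and 3 (adjusted p = 0.0563, 0.103 and 0.153) or VC- day 7 replicates 2, 3 and 4 (0.0901, 0.0737 and 0.0691). It was also lost without the Prss2 arrays (0.44, adjusted p = 0.269) and with Hoxb13 as a term (0.0641).

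Lamp2, which also serves chaperone-mediated autophagy, depended on the probe set. The one used here had 11.35, 11.56, 11.96 and 11.73 at day 7 against 11.28, 11.90 and 12.01 at day 0 in VC+ mice, and 11.31, 13.02, 12.17 and 11.66 at day 7 against 11.38, 11.43 and 11.71 at day 0 in VC- mice. The groups overlapped in both genotypes and neither change passed the test (-0.08 ± 0.30 in VC+ mice and 0.53 ± 0.30 in VC- mice). The 3 other Lamp2 probe sets gave 0.04, 0.30 and 0.41 in VC+ mice and 0.25, 1.05 and 1.10 in VC- mice, and the one with the highest mean passed the test in VC- mice when it stood for the gene (1.10, adjusted p = 0.0281). Among the 28 members with more than 1 probe set, the sign of the VC- day 7 change was the same in all probe sets for 15 and differed for 13.

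The remaining membrane proteins did not pass the test. Scarb2 (LIMP-2, the receptor that carries β-glucocerebrosidase to the lysosome) changed by 0.81 in VC+ mice and 0.49 in VC- mice, Npc1 by 0.09 and 0.41, the calcium channel Mcoln1 by -0.18 and 0.25, and Cln3 by -0.51 and 0.28. Laptm4a was lower at day 7 on every VC+ array (11.58, 11.66, 11.81 and 11.66 against 11.99, 12.05 and 11.84), a change of -0.28 that did not pass the test, and the VC- groups overlapped. Of the peptidases and phosphatases beside Lgmn, Tpp1, a tripeptidyl peptidase, changed by -0.03 in VC+ mice, compared with 0.51 in VC- mice, and Acp2, lysosomal acid phosphatase, by 0.34 and 0.82. Aga, which splits the bond between asparagine and the glycan, was lower at day 7 in both genotypes (-0.39 and -0.47). In the sorting class no gene passed: Igf2r, the large mannose 6-phosphate receptor, changed by -0.44 in VC+ mice and 0.31 in VC- mice, Gnptab, the enzyme that starts the mannose 6-phosphate tag, by -0.30 and -0.31 (-0.16 and 0.08 on its brightest probe set), and the sorting receptor Sort1 by -0.54 and -0.78. The 8 members outside the variance filter changed by -0.45 to 0.28 in VC+ mice and -0.03 to 0.43 in VC- mice, and Abca2 stayed between 2.65 and 2.72 on all arrays, in the range of probe sets with little or no signal. With all 18194 genes tested and no variance filter, 3.19% of genes and 7 of the 42 members passed in VC- mice, Psap being the one lost (adjusted p = 0.0550).

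**Figure D3:**
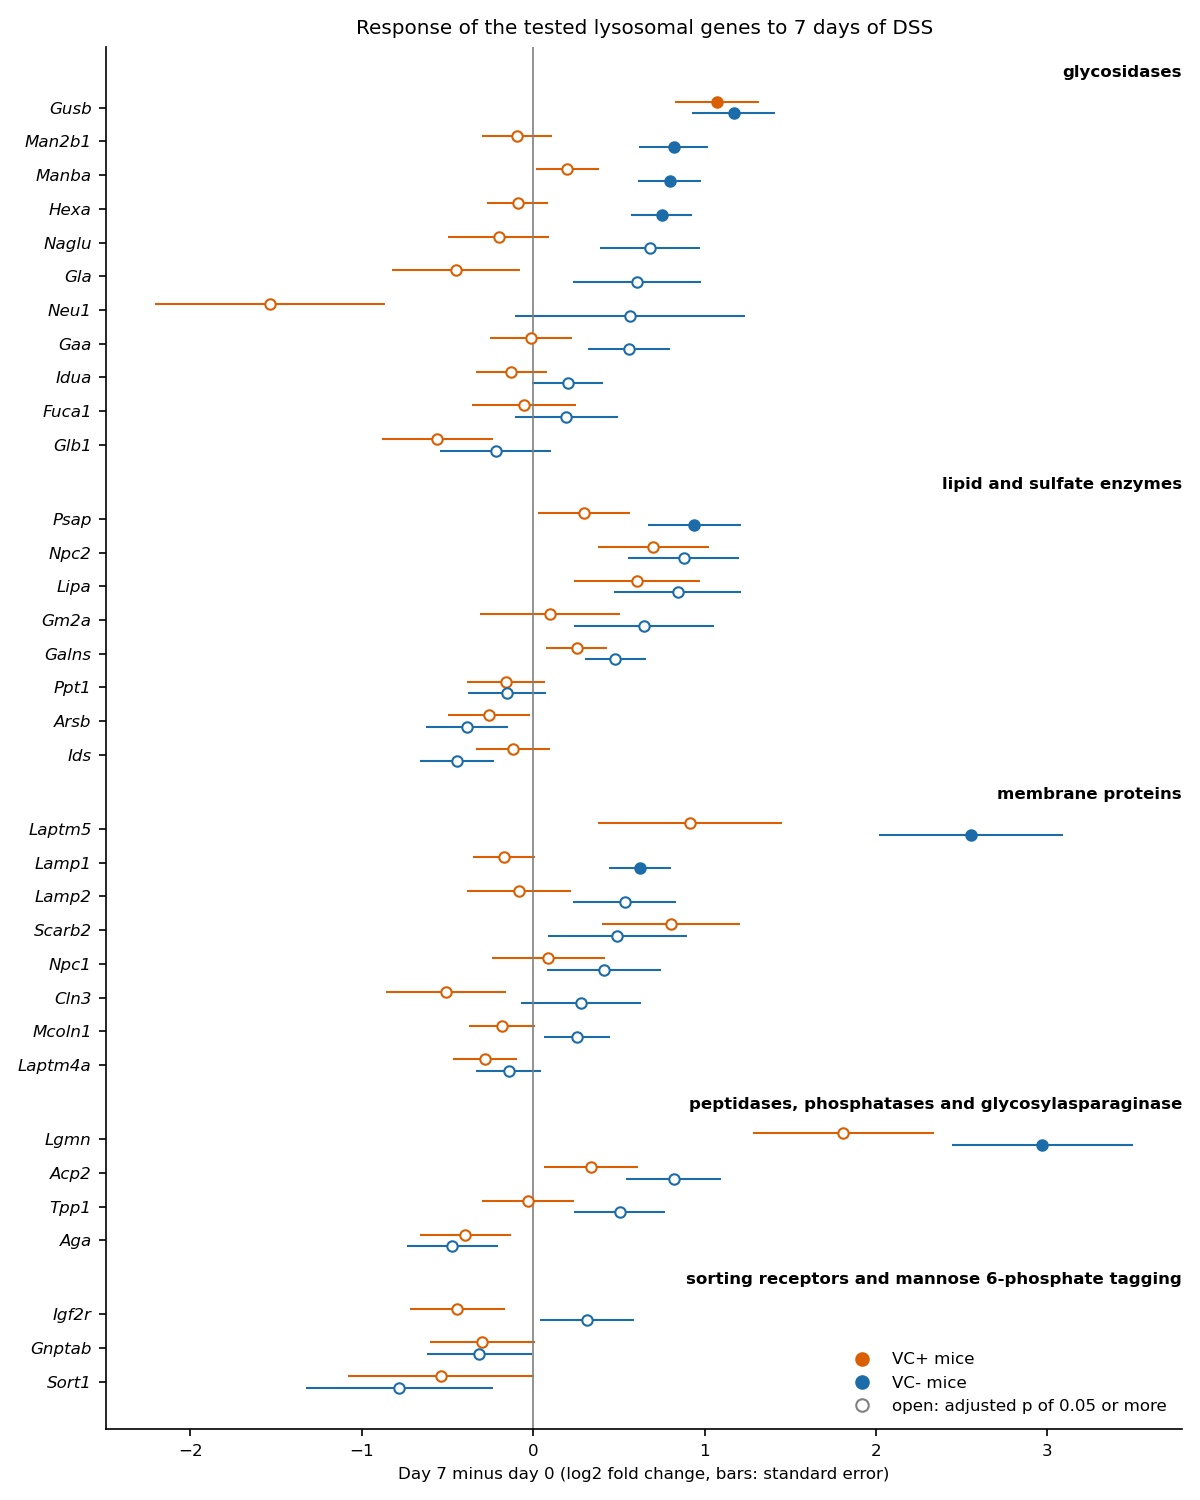
Log2 fold change from limma, day 7 minus day 0, with its standard error, of the 34 tested members by class, in VC+ mice (orange) and VC- mice (blue); filled points passed an adjusted p of 0.05. In 28 of 34 genes the VC+ point lies left of the VC- point, and for Gusb both points are filled and lie together.

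The direct comparison of the responses asks whether the change from day 0 to day 7 in VC+ mice differed from that in VC- mice. No member passed this test, nor did any of the 9097 genes (0% of genes tested). Before adjustment 7 members and 771 of all genes had p under 0.05 (269 of these genes lower in VC+ mice), and all 7 members were lower in VC+ mice: Hexa (-0.84 ± 0.25), Man2b1 (-0.91 ± 0.29), Lamp1 (-0.79 ± 0.26), Manba (-0.60 ± 0.26), Neu1 (-2.10 ± 0.95), Laptm5 (-1.64 ± 0.76) and Naglu (-0.88 ± 0.42), with adjusted p of 0.580 to 0.583. The Laptm5 value comes from a dimmer probe set (mean 6.76). On the brightest one (mean 11.04) Laptm5 changed by 0.97 in VC+ mice and 1.62 in VC- mice, which lie closer together. The median difference of the members was -0.46, with 28 of 34 below 0 and all 11 glycosidases among these 28, and that of all genes tested was 0.04. Because the members were chosen with earlier results of these arrays known, this shift is not independent evidence of direction. For Gusb the difference was -0.10 ± 0.34. Thus the passing of 8 members in VC- mice and 1 in VC+ mice does not show that the responses differ for any single gene. With array quality weights, which give less weight to arrays far from their group, 6 members (17.6%) passed, all lower in VC+ mice, and 792 of all genes (8.71%) passed.

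The difference of the responses is, by construction, the gap between VC+ and VC- mice at day 7 minus the gap at day 0, so the members' gaps on each day were set side by side. At day 0 the median gap (VC+ minus VC-) was 0.17, with 25 of 34 above 0, against -0.01 for all genes tested. At day 2 it was 0.08, with 23 above 0. At day 7 it was -0.18, with 7 above 0, against 0.08 for all genes tested. By class the day 0 median was 0.36 for glycosidases, 0.18 for membrane proteins, 0.14 for sorting genes and 0.09 for peptidases and phosphatases. For lipid and sulfate enzymes it was -0.01, with 4 of 8 above 0. The positive day 0 gap was thus not shared by all classes. For 19 other lysosome genes that are not members it was -0.04, with 7 above 0 and 12 below. No member passed the test on any of these days (0.011%, 0.044% and 0% of all genes did at days 0, 2 and 7). For the 8 members that rose in VC- mice the median gaps were 0.43, 0.15 and -0.35 at days 0, 2 and 7, with 8 of 8 above 0 at day 0 and 8 of 8 below 0 at day 7. These 8 were picked on the VC- day 0 and day 7 arrays that enter the gaps, so their signs are a description only. All 34 members were chosen with earlier results of these arrays known. Their signs and shares in the gaps, here and below, are therefore not independent evidence of direction.

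At day 0, all arrays of VC+ mice lay above all arrays of VC- mice for 11 members (Hexa, Man2b1, Manba, Glb1, Fuca1, Galns, Psap, Lamp1, Laptm5, Cln3 and Mcoln1), while Ids lay below. Of all genes tested, 9.66% lay above and 10.6% below in this way. Several of these depend on the probe set. The brightest Laptm5 probe set (mean 11.04) gave 0.26 and that of Ids (mean 10.01) gave -0.05, both with overlap. Other Fuca1 probe sets gave -0.10 and 0.06 with overlap, and a dimmer one of Man2b1 gave -0.06 with VC+ mice below. The brighter Psap probe set gave 0.51 and was again apart, and Gaa and Gm2a lay above on another probe set. On the probe sets used, all 11 glycosidases had a higher mean in VC+ mice, with a median of 0.36 and differences of 0.07 for Gusb to 0.86 for Gla and 2.05 for Neu1, whose VC- values were at the level of probe sets with little or no signal. On another probe set Gusb gave -0.27 with overlap, and the brightest Gla probe set gave 0.69. Before adjustment 6 members had p under 0.05, all higher in VC+ mice (17.6%, against 3.79% of all genes tested): Hexa (0.69 ± 0.19, adjusted p = 0.478), Neu1, Man2b1 (0.54 ± 0.22), Lamp1 (0.46 ± 0.19), Gla (0.86 ± 0.40) and Cln3 (0.82 ± 0.37). Hexa, for example, had 11.87, 12.06 and 12.16 in VC+ mice against 11.51, 11.18 and 11.32 in VC- mice. Cln3, a membrane protein whose loss causes juvenile Batten disease, had 5.81, 6.01 and 6.48 in VC+ mice against 5.48, 4.97 and 5.39 in VC- mice. With array quality weights 6 members passed at day 0, all higher in VC+ mice, and 686 of all genes (7.54%) passed.

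Some markers of other cell types also differed between the genotypes at day 0. The mean of the 12 colonocyte markers relative to all arrays was 0.31, -0.51 and -0.40 on the VC+ arrays against 0.58, 0.48 and 0.54 on the VC- arrays, with no overlap. Of the 10 tested, 5 were lower and 5 higher in VC+ mice. Their gaps ran from -5.68 to 0.36 with a median of -0.05, so the lower list mean did not hold for every marker. The mean of 5 T cell markers was -0.04, 0.76 and 0.43 in VC+ mice against -0.20, -0.12 and -0.21 in VC- mice. Only 2 of the 5 varied enough to be tested, and both were higher in VC+ mice without overlap (by 1.14 and 1.26). The mean signal of the 5 was low, at 3.71 to 4.51 log2 in VC+ mice and 3.54 to 3.63 in VC- mice. All 6 smooth muscle genes had a lower mean in VC+ mice (median -0.53), 2 of them without overlap, and their list mean was -0.20, -0.41 and 0.28 in VC+ mice against 0.76, 0.38 and 0.27 in VC- mice. Of the 18 macrophage and monocyte markers, 7 had a higher mean in VC+ mice (median -0.05). None of these markers passed the test, and their part in the day 0 gap of the lysosomal genes was not tested.

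Neu1 showed how far arrays of one group could lie apart at day 0. It had 3.00, 5.55 and 6.19 in VC+ mice against 2.79, 2.77 and 3.02 in VC- mice, a gap of 2.05 ± 0.72 (adjusted p = 0.663) that is measured against values at the level of probe sets with little or no signal. The VC+ array at 3.00, replicate 1, lay among the VC- values. This array also had the lowest Lgmn (7.11, against 9.08 and 8.99 on the other VC+ arrays), the lowest Gla (6.17, against 7.24 and 6.92) and the highest Hoxb13 (12.42, against 3.09 and 2.88). The glycosidase mean relative to all arrays was -0.08 on it and 0.24 and 0.36 on the other 2. The part of the colon region in these differences was not tested beyond a fit with Hoxb13 as a term, in which the members' median gap at day 0 was 0.17 and no member passed. A second, brighter Neu1 probe set (mean 9.36) gave -1.54 for day 7 minus day 0 in VC+ mice, 0.03 in VC- mice and a day 0 gap of 1.56, and the last probe set gave -0.08, -0.06 and 0.04.

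**Figure D4:**
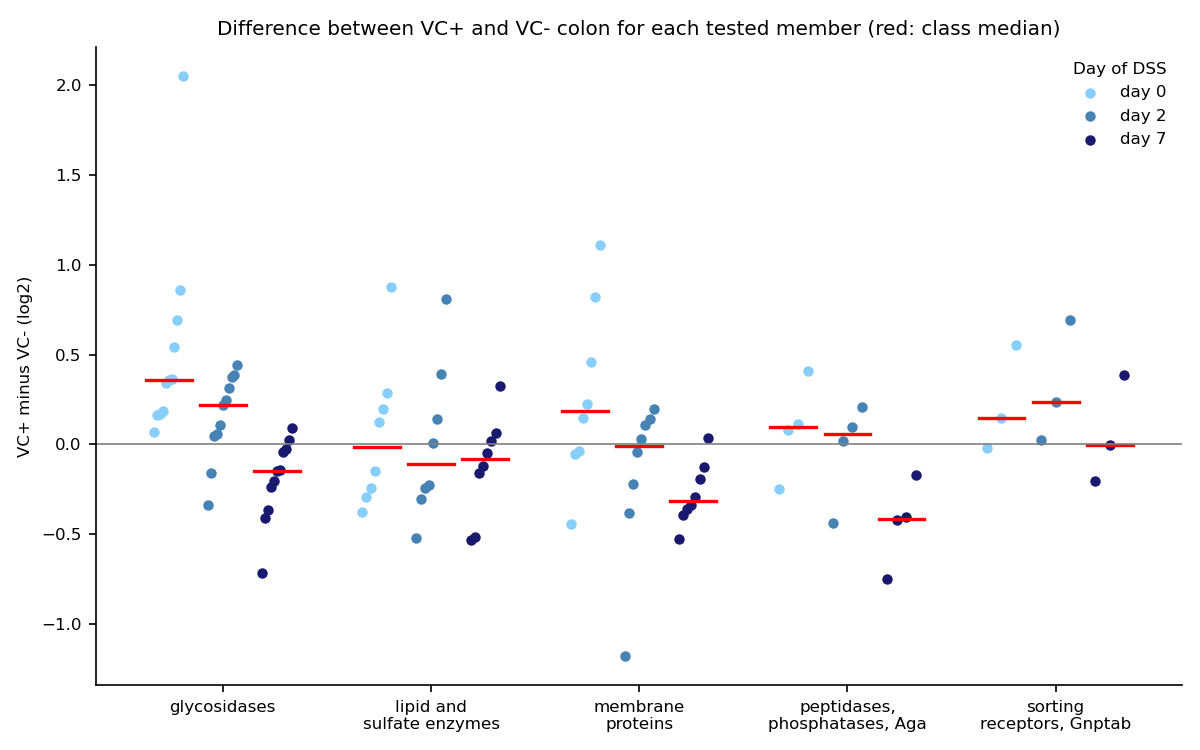
VC+ minus VC- log2 difference from limma of each tested member (points) at days 0, 2 and 7, by class, with the class median in red. The glycosidases lie above 0 at day 0 (median 0.36, 11 of 11) and mostly below 0 at day 7 (median -0.15, 9 of 11 below), and no single difference passed the test.

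After 2 days of DSS no member passed the test in VC+ mice (0.055% of all genes did) or in VC- mice (0.011% did). The median change of the members was -0.03 in VC+ mice, with 14 of 34 above 0, and 0.15 in VC- mice, with 26 above 0, and the medians of all genes tested were -0.02 in both genotypes. In VC- mice 8 members (Gusb, Manba, Glb1, Scarb2, Cln3, Mcoln1, Tpp1 and Lgmn) had all day 2 arrays above all day 0 arrays, which 7.83% of all genes did. Lgmn had 9.16, 8.63 and 8.59 at day 2 against 8.13, 7.76 and 8.07 at day 0 in VC- mice, a change of 0.81 ± 0.57. In VC+ mice Ids lay above and Lamp1 below its day 0 values on every day 2 array (Lamp1 12.01, 12.00, 11.84, 12.04 and 11.98 against 12.29, 12.08 and 12.24). Each is 2.94% of the members, whereas 4.17% of all genes lay above and 6.27% below in this way.

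The mean of all 42 members was also taken on each array. Relative to its mean over all arrays it was -0.04 to 0.06 at day 0, -0.13 to 0.08 at day 2 and -0.08 to 0.11 at day 7 in VC+ mice. In VC- mice it was -0.30 to -0.16 at day 0, -0.13 to -0.04 at day 2 and -0.13, 0.49, 0.27 and 0.25 on day 7 replicates 1 to 4. Thus the lowest values of the series were those of VC- mice at day 0 and the highest those of 3 of the 4 VC- arrays at day 7, with all VC+ arrays in between. Of the 4 VC- day 7 arrays, replicate 1 was lowest for 22 of the 34 tested members and replicate 2 highest for 19. Without replicate 1 the members' median change in VC- mice was 0.71 and 14 members (41.2%) passed, against 28.6% of all genes tested. Without replicate 2 the median was 0.37 and 6 members (17.6%) passed, against 4.22% of all genes.

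The macrophage markers moved with these arrays. Their mean relative to all arrays was 0.34, 0.39, 0.81 and 1.89 on VC+ day 7 replicates 1 to 4 and -0.22, 2.23, 1.06 and 1.26 on VC- day 7 replicates 1 to 4, against -1.06 to -0.79 in VC+ mice and -0.95 to -0.79 in VC- mice at day 0. Of the 18 markers, all tested, 6 rose in VC+ mice (median log2 change 1.83) and 15 rose in VC- mice (median 2.04), with none falling, and the median difference of the responses was -0.12. More genes of any kind passed in VC- mice (10.6%, 5.53% as a rise) than in VC+ mice (1.75%). The 2 marker counts therefore do not show a larger macrophage response in VC- mice. The colonocyte mean was at -2.83 on VC- day 7 replicate 2 and between -0.69 and 0.58 on all other arrays. In VC+ mice all 18 markers were above 0 at day 7, while 12 of the 34 lysosomal members were. The part of a change in cell types in the lysosomal values was not tested.

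**Figure D5:**
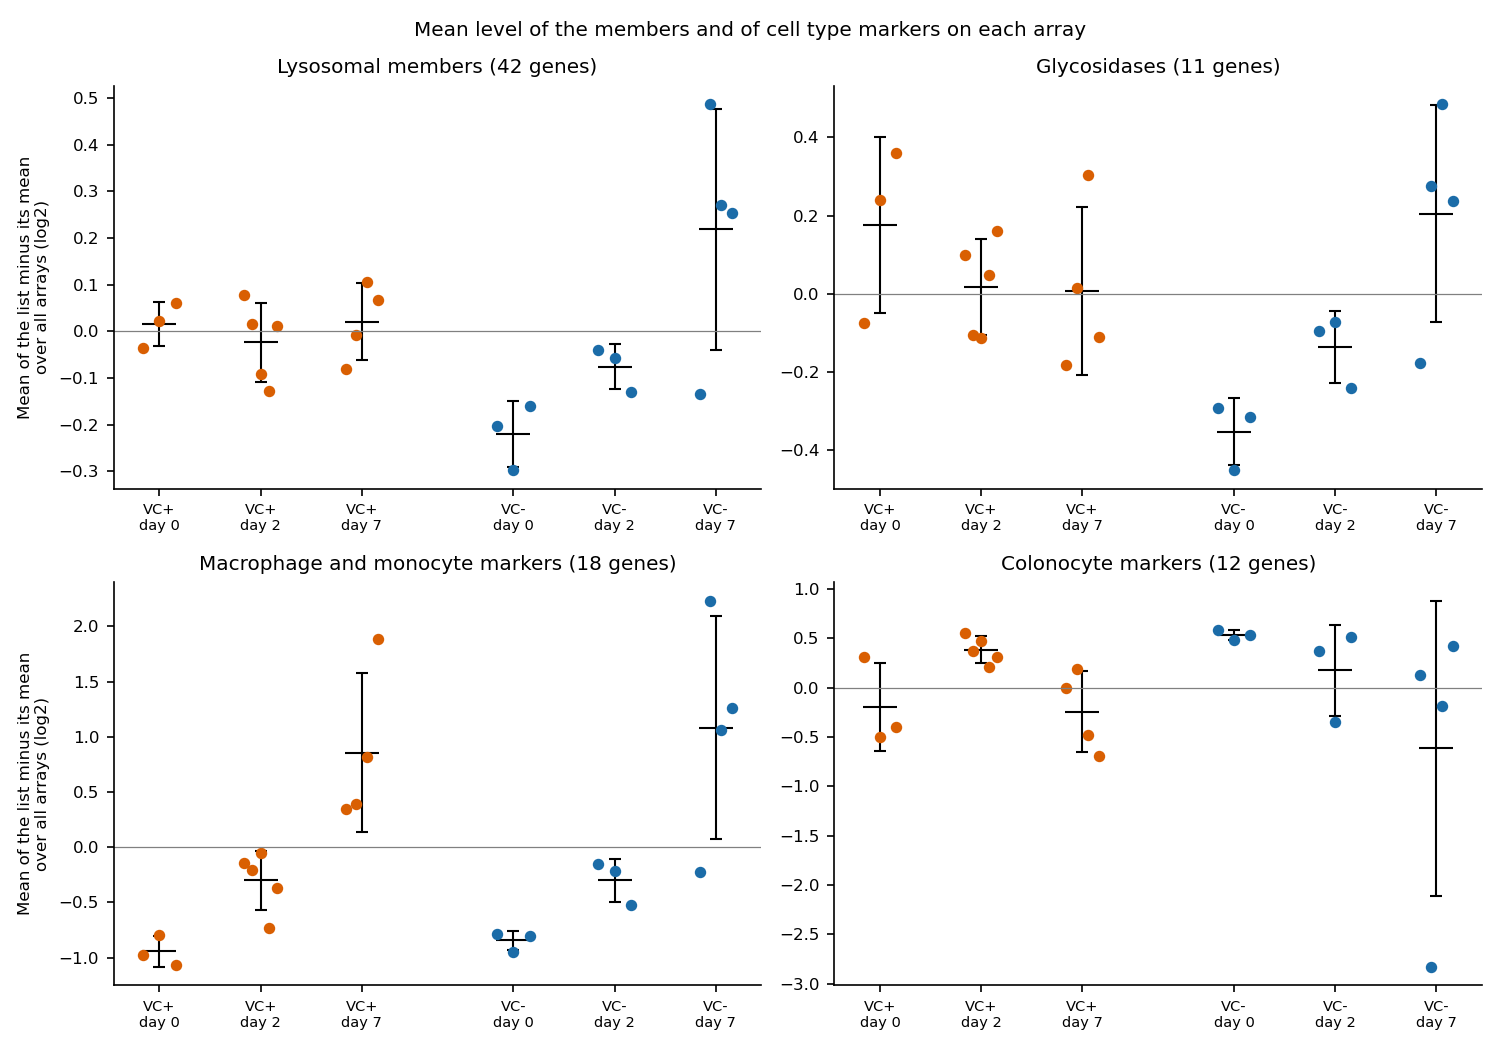
Mean log2 value on each array (points) of the 42 lysosomal members, the 11 glycosidases, 18 macrophage and monocyte markers and 12 colonocyte markers, each minus its mean over all 22 arrays, with group mean (dash) and SD (bars), for VC+ mice (orange) and VC- mice (blue). The macrophage markers are higher at day 7 in both genotypes, whereas the lysosomal means step up at day 7 in VC- mice, with replicate 1 at -0.13, and stay level in VC+ mice.

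Of 26 other lysosome genes that are not members, 19 were tested. In VC+ mice 2 rose, Cd68 (2.90, adjusted p = 0.0404), a lysosomal glycoprotein used as a macrophage marker, and Slc11a1 (2.30, adjusted p = 0.0315), the metal transporter of phagosomes. In VC- mice 4 rose, Cd68 (3.32, adjusted p = 0.0101), the protective protein Ctsa (1.23, adjusted p = 0.0256), the iron transporter Slc11a2 (1.05, adjusted p = 0.0371) and the sulfatase-activating enzyme Sumf1 (0.73, adjusted p = 0.0317), and none fell in either genotype. Over all genes tested 1.75% passed in VC+ mice and 10.6% in VC- mice, 5.53% as a rise. The median change of the 19 was 0.07 in VC+ mice and 0.56 in VC- mice, against -0.02 and -0.09 for all genes tested. Their median gap at day 0 (VC+ minus VC-) was -0.04, against 0.17 for the members. Without overlap, 5 of the 19 lay above and 5 below at day 0 (9.66% and 10.6% of all genes did). This list, too, was chosen with earlier results of these arrays known, so it is not independent evidence of direction. Ctsa, Slc11a2 and Sumf1 changed by 0.11, 0.01 and 0.10 in VC+ mice, and none of the 19 passed the test of the difference of the responses.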

How the data were processed

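The authors hybridized RNA of homogenized colon to 22 Affymetrix arrays and processed the arrays together with GC-RMA in R 2.10.1 (per the submitters' notes), so the deposited values are log2 signals per probe set, corrected for background and normalized. The values run from 0.58 to 16.76, the array medians from 3.41 to 3.55, and 41.7% of values lie under 3. The number of arrays limits the precision. Of 45101 probe sets, 34958 have 1 gene symbol, 932 several and 9211 none in the annotation used, and only those with 1 were used. limma 3.58.1 (R 4.3.3) fitted 1 mean per group, and the variances were moderated by empirical Bayes. P-values are two-sided and adjusted by Benjamini-Hochberg over the 9097 genes tested, within each of 8 comparisons. ± is the standard error of the fit, unless called SD. The procedure was tested on simulated data. Members, lists and tests were chosen with earlier results of these data known. All members may be named; values on every array go to members called in any comparison and to members the study names, and other members are given by class with their largest changes and where a pattern is described. Promoters come from RefSeq (GRCm38.p6). Alternatives covered probe set choice, filters, centring, weights, the samples in the fit, a replicate block, Prss2, Hoxb13 and Xist. Replicate numbers were not used as pairs.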

Additional observations from a re-analysis of the deposited data

Results flagged for a closer look

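A gap test for single outlying arrays was run on 150 groups of 4 or 5 arrays (members and class means); 8 were marked, where about 1 in 20, or 7.5, would be by chance. On VC+ day 7 replicate 4, an array with Prss2 signal, Npc2 stood at 7.04 (5.51 to 5.60 on the other arrays of the group), Acp2 at 6.86 (6.20 to 6.29) and the mean of the lipid and sulfate enzymes at 7.97 (7.68 to 7.71). On VC- day 7 replicate 2, also with Prss2 signal, Scarb2 stood at 11.08 (9.94 to 10.12). Scarb2 stood at 10.59 on VC+ day 2 replicate 2 (8.58 to 8.997), Gusb at 8.88 on VC+ day 2 replicate 5 (8.46 to 8.58) and Sgsh at 4.77 on VC+ day 7 replicate 3 (4.18 to 4.26). Abca2 was marked at 2.71 on VC- day 7 replicate 1 (2.65 to 2.66), in a range where probe sets with little or no signal lie. The values are given with no explanation, since none was tested.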

How the results depend on the processing

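In VC+ mice at day 7 the count of 1 called member became 0 with the mean of all probe sets, 0 when the fit held only both groups, 0 with the replicate block, 6 with array quality weights (17.6%, against 16.6% of all genes) and 2 without the Prss2 arrays, and 0 to 2 with each array left out. In VC- mice the count of 8 became 0 when the fit held only both groups, 4 with the replicate block (4.07% of all genes) and 3 without the Prss2 arrays (1.95%), and ranged between 2 and 14 with each array left out. It was 5, 3 and 2 when VC- day 0 replicates 1, 2 and 3 were left out in turn (5.72%, 2.64% and 1.40% of all genes), and 14 when VC- day 7 replicate 1 was (28.6%). The replicate block ended the VC- calls of Hexa, Man2b1, Psap and Lamp1 (adjusted p = 0.0529, 0.0568, 0.0799 and 0.0774). It also ended the VC+ call of Gusb (adjusted p = 0.0696). Array quality weights gave 6 members for the difference of the responses, 3 for VC+ mice at day 2, and 6 and 2 for VC+ against VC- mice at days 0 and 7, where the counts were 0. Over all genes these fits called 8.71%, 14.1%, 7.54% and 17.5%, against 17.6%, 8.82%, 17.6% and 5.88% of the members. With each array left out, VC+ against VC- mice gave 0 to 1 at day 2 (1 without VC+ day 2 replicate 2) and 0 to 3 at day 7 (3 without VC- day 7 replicate 1, where 13.3% of all genes passed). No called change was reversed. Of the values that missed the threshold, the Lamp2 change in VC+ mice at day 7 (-0.08) was 0.41 with the brightest probe set, 0.17 with the mean of all probe sets and ran from -0.307 to 0.0578 with each array left out (above 0 when VC+ day 0 replicate 2, VC+ day 0 replicate 3 or VC+ day 7 replicate 1 was missing). The Gusb difference of the responses (-0.10) was 0.23 with the mean of both probe sets, and ran from -0.300 to 0.117 with each array left out (above 0 when VC+ day 7 replicate 1 or VC- day 7 replicate 2 was missing). The brightest probe set also turned the sign of Npc2 in VC+ mice (-0.25) and of Gla, Gnptab and Ids in VC- mice (-0.03, 0.08 and 0.23). The cause of these shifts was not tested. The replicate numbers are not known to pair arrays: 18 of 48 pairs with the same number and 36 of 152 others correlated above 0.1 after group means were removed (mean 0.084 and -0.027), and for 13 of 22 arrays the closest array bore the same number. Arrays of the same number were thus somewhat more alike than others, and the reason was not tested. Groups of 3 to 5 arrays and 1 probe set per gene limit what small changes can show.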
